A study of Homo sapiens with 8 samples.

Results

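Untreated MUG-Chor1 cells were compared with untreated U-CH1 cells, on 3 control arrays of each line. The arrays were chosen by their labels and make up 6 of the 8 arrays of the series. The other 2, from cells given TNF-α at 10 ng/mL for 1 week, were left out of the comparison and entered only 1 alternative fit. They otherwise serve only as values from further samples. U-CH1 and MUG-Chor1 are established human cell lines grown from chordomas, and all 6 controls were kept in monolayer on gelatin-coated plastic in a mix of IMDM and RPMI with fetal bovine serum and antibiotics, with no agent added. Total RNA was extracted with Trizol and labelled as single-stranded cDNA for a whole-transcript array. Each group is a single cell line, so line, tumour of origin and culture history cannot be told apart. RNA came from whole cultures, in which fewer cells of a kind and less RNA per cell cannot be told apart.

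Chordomas grow in bone of the skull base and spine and carry features of the notochord, the embryonic midline rod that patterns the spine. Notochord cells make the transcription factor brachyury (TBXT), hold together through cadherins and desmosomes, and surround themselves with a sheath and a jelly of collagen, laminin and sulphated proteoglycan. Cell lines of 1 tumour type can share such a lineage programme and still differ in the matrix they lay down, the contacts they make, the patterning factors they carry and the fuels they burn.

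Values are deposited log2 intensities of probe sets, 1 per gene. A difference is MUG-Chor1 minus U-CH1 on that scale, with higher and lower written only of genes at a Benjamini-Hochberg adjusted p under 0.05 in limma, adjusted over all genes tested. Values in a sentence run from control 1 to control 3 of each line. Brightness depends on the probes, so levels of different genes are not set against each other, and differences near the floor understate the change. Array medians ran from 2.52 to 2.63. MUG-Chor1 control 3 stood apart from the other controls of its line: 44 genes lay at least 2 log2 units from the mean of the other controls on it, against 1 to 11 on each of the other 5 arrays, and it correlated with controls 1 and 2 at 0.959 and 0.958 where these correlated at 0.980. Without it 3080 genes passed (1628 higher, 1452 lower), 2643 of them shared with the calls of all 6 arrays. The labels do not state whether the controls of a line were separate cultures, so p-values measure a spread that may be only technical, and 3 arrays a line limit the precision.

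Of 22395 measured genes, 16671 lay above 2.57, the median of all values on the 6 controls, on at least 1 array and were tested. In limma 3201 passed, 19.2% of the genes tested; 1752 (10.5%) were higher in MUG-Chor1 and 1449 (8.69%) lower. The share called in each gene list below is to be read against 19.2%. The median difference over all genes tested was -0.04 and the median size 0.32. The 3 arrays of each line did not overlap for 6099 genes, 36.6% of those tested. A difference of at least 2 was reached by 391 called genes, 202 higher and 189 lower, and of at least 4 by 45. Of the called genes, 367 passed the filter in 1 line only, 166 in MUG-Chor1 and 201 in U-CH1. Leaving out MUG-Chor1 control 1 lowered the number to 2124, and leaving out each array in turn gave 2124 to 3080 calls.

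The notochord markers TBXT, CD24 and SOX9 were bright in both lines. Of the 22 markers tested 16 did not pass, and the share called was 27.3%, against 19.2% over all genes. Not all markers were bright, and S100B had a mean of 2.09 in U-CH1. The mean log2 level of the 23 measured markers ran from 5.44 to 5.73 in U-CH1 and from 5.45 to 5.84 in MUG-Chor1. TBXT, which encodes brachyury, read 9.48 ± 0.31 (SD, n = 3) in U-CH1 and 9.43 ± 0.03 (SD, n = 3) in MUG-Chor1. CD24, a surface marker of notochord-derived nucleus pulposus cells, and SOX9, the master regulator of cartilage matrix, were also bright in both. TBXT differed by -0.05 ± 0.21 (SE, limma adjusted p = 0.899), CD24 by 0.06 ± 0.19 (adjusted p = 0.878) and SOX9 by -0.11 ± 0.23 (adjusted p = 0.793). The matrix proteoglycan aggrecan (ACAN) read 8.71 ± 0.39 (SD, n = 3) in U-CH1 and 8.42 ± 0.30 (SD, n = 3) in MUG-Chor1, and it did not pass (limma adjusted p = 0.465). Of the simple keratins of chordoma, KRT19 read 10.53, 10.45 and 10.58 in U-CH1 and 9.83, 9.86 and 9.76 in MUG-Chor1, a difference of -0.71 ± 0.18 (SE; limma adjusted p = 0.0191). The 3 MUG-Chor1 values lay below the 3 U-CH1 values. KRT19 lost its limma call without U-CH1 control 1 or MUG-Chor1 control 1 or 2 (adjusted p up to 0.0647). KRT8 (0.30, limma adjusted p = 0.434) and KRT18 (-0.44, adjusted p = 0.292) did not pass, and EPCAM, the epithelial adhesion molecule, was near the floor, with means of 2.49 in U-CH1 and 1.94 in MUG-Chor1. In the list of chordoma and notochord markers 4 were higher, 2 lower and 16 did not pass of 22 tested (23 measured of 24 listed, 2 tested through 1 line only, 27.3% called, median difference -0.17). The markers higher in MUG-Chor1 were the neural cadherin CDH2 (1.92), the cartilage factor SOX6 (1.42), the floor plate and roof plate factor LMX1A (1.40) and S100B (1.04), and KRT19 and COL2A1 (-1.07), the chief collagen of cartilage and notochord, were lower. LMX1A lost its limma call without U-CH1 control 1, 2 or 3 (adjusted p up to 0.0996), S100B without U-CH1 control 1 or 2 or MUG-Chor1 control 1 or 2 (adjusted p up to 0.0849), and COL2A1 without U-CH1 control 1 or 3 or MUG-Chor1 control 1 or 2 (adjusted p up to 0.136). In the chordoma and notochord list the higher count of 4 was 2 without U-CH1 control 1 or 2, and its lower count of 2 was 0 without U-CH1 control 1 or MUG-Chor1 control 1, or 1 without U-CH1 control 3 or MUG-Chor1 control 2, or 4 without MUG-Chor1 control 3.

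Markers of other cell types were read for comparison. The leukocyte antigen PTPRC (mean 1.11 in U-CH1, 1.09 in MUG-Chor1), the myogenic factor MYOD1 (2.19 and 2.36) and the melanocyte antigen MLANA (1.76 and 1.69) lay below the filter on all 6 arrays. CDH5, the cadherin of endothelium, read 2.59 and 2.42. Among 7 tested endothelial markers only the VEGF receptor KDR was higher (2.45, 14.3% of the markers called). Among 8 tested leukocyte markers only HLA-DRA was lower (-0.90, 12.5% of the markers called). None of 5 skeletal muscle and none of 3 melanocyte markers tested passed in limma, and 0 of them had an unadjusted p under 0.05. Of 7 smooth muscle markers (28.6% called), MYL9 (-1.31) and TAGLN (-0.62) were lower. HLA-DRA lost its limma call without U-CH1 control 2 or 3 or MUG-Chor1 control 1 or 2 (adjusted p up to 0.116), MYL9 without U-CH1 control 1 or 3 (adjusted p up to 0.0649), and TAGLN without each of the 6 arrays in turn (adjusted p up to 0.122). Of 9 fibroblast markers (44.4% called), DPP4 (3.28) and PDGFRB (1.23) were higher and LUM (-2.34) and S100A4 (-0.88) lower. S100A4 lost its limma call without U-CH1 control 1 or 2 or MUG-Chor1 control 1 or 3 (adjusted p up to 0.0917).

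The largest differences of coding genes in the lower direction fell on genes of several families. DOC2B, a calcium sensor of vesicle fusion, read 8.92, 8.99 and 8.96 in U-CH1 and 2.62, 2.72 and 2.85 in MUG-Chor1, a difference of -6.23 ± 0.18 (SE; limma adjusted p = 5.66e-08). HPGDS, the glutathione-dependent synthase of prostaglandin D2, read 7.35, 7.45 and 7.92 in U-CH1 and 2.16, 1.60 and 2.09 in MUG-Chor1 (-5.62 ± 0.23, SE). EPYC, a small leucine-rich proteoglycan of growth cartilage, read 8.87, 9.17 and 9.39 in U-CH1 and 3.92, 2.93 and 4.21 in MUG-Chor1 (-5.46 ± 0.31, SE). All 3 genes were bright on every U-CH1 array, and no MUG-Chor1 array came near them. STC1, a secreted hormone of calcium and phosphate balance, followed at -5.32, the guanine deaminase GDA at -5.22, the calpain relative CAPN6 at -5.12, the desmosome plaque protein desmoplakin (DSP) at -4.94, NAA38 of the N-terminal acetyltransferase C at -4.93 and the cancer-testis antigen MAGEC2 at -4.62. The other 6 of the 15 were the actin-severing protein scinderin (SCIN, -4.57), the adhesion receptor ADGRG2 (-4.49), the calcium release channel RYR2 (-4.32), the growth factor BMP6 (-4.28), the fatty acid elongase ELOVL2 (-4.23) and TPD52L1 (-4.04). DOC2B read just above the filter in MUG-Chor1, and HPGDS, STC1 and RYR2 passed it in U-CH1 only.

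In the other direction the histone gene H2BC14 read 3.87, 3.24 and 2.70 in U-CH1 and 8.28, 9.23 and 8.96 in MUG-Chor1, a difference of 5.55 ± 0.32 (SE; limma adjusted p = 2.17e-06). The interferon-induced membrane protein gene IFITM2 read 3.77, 4.03 and 3.37 in U-CH1 and 9.63, 9.60 and 8.50 in MUG-Chor1 (5.52 ± 0.31, SE). Both have near-identical copies elsewhere in the genome, so the identity of the gene behind these probe sets is uncertain, as it is for the metallothionein MT1F and for RNASE2. LRRC17, a secreted leucine-rich repeat protein, read 2.08, 2.21 and 2.32 in U-CH1 and 7.04, 7.19 and 7.46 in MUG-Chor1 (5.03 ± 0.20, SE), and the matrix protein gene MXRA5 read 2.31, 2.24 and 3.26 in U-CH1 and 8.13, 7.93 and 6.34 in MUG-Chor1 (4.86 ± 0.44, SE). MUG-Chor1 control 3 was the lowest of its line for MXRA5 and still above all U-CH1 arrays. SCRN1 followed at 4.80, the muscarinic receptor CHRM2 at 4.77, FAM83B at 4.73, EXOC1L at 4.56, the mitochondrial co-chaperone DNAJC15 at 4.48, MT1F at 4.39, the iron-binding melanotransferrin MELTF at 4.27, RNASE2 at 4.27, the synaptotagmin SYT11 at 4.19, the protease inhibitor SPINT2 at 4.17 and the zinc transporter TMEM163 at 4.11. LRRC17, CHRM2, FAM83B, EXOC1L and MT1F passed the filter in MUG-Chor1 only. MT1F read 7.80 on MUG-Chor1 control 3 against 5.80 and 6.18 on controls 1 and 2, and its difference was 3.78 without that array. Outside the coding genes, the small nucleolar RNA genes SNORD114-1 (-6.07) and SNORD114-3 (-6.04) and PPIAP46 (-5.56), a pseudogene of the PPIA family, were lowest, and RNASE2CP (4.34), a pseudogene related to RNASE2, the long noncoding RNA CRNDE (2.86) and MIR4500 (2.81) were highest.

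**Figure D1:**
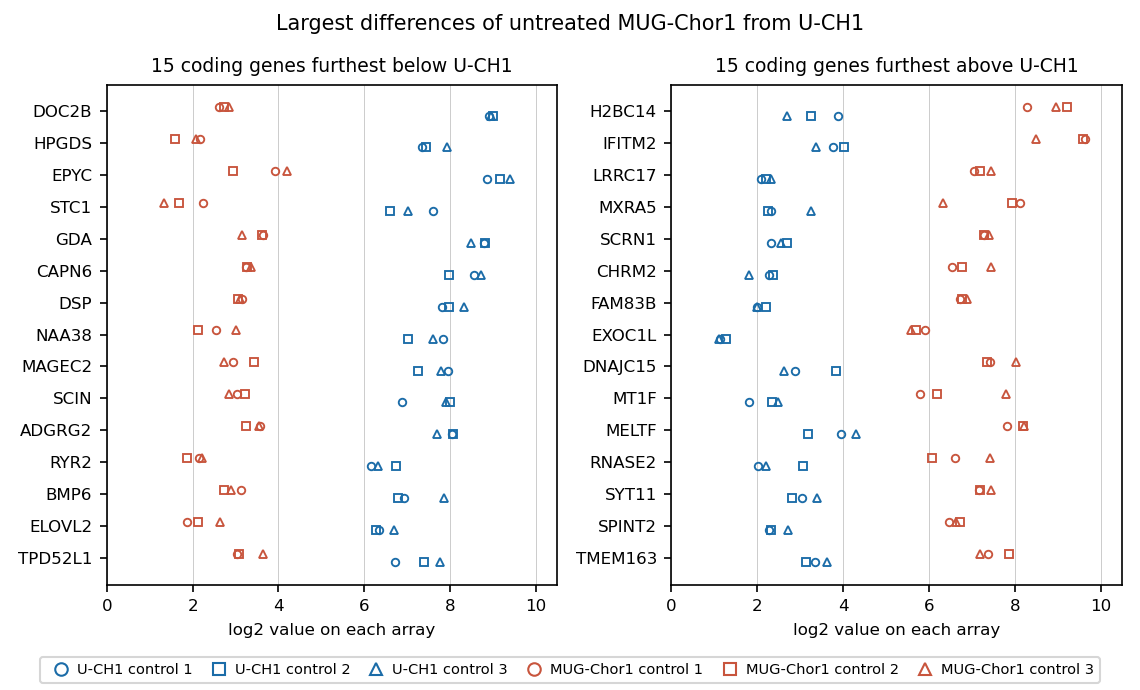
Log2 values on each of the 6 control arrays (x axis) for the 15 coding genes with the largest differences each way among those called (y axis), with blue symbols for U-CH1, red for MUG-Chor1 and the symbol shape for the control number. The lines do not overlap for any of the 30 genes; MUG-Chor1 control 3 is lowest of its line for MXRA5 and highest for MT1F.

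Structural matrix genes were called in both directions. Of the collagen chain genes 3 were higher, 4 lower and 19 did not pass of 26 tested (33 measured of 35 listed, 2 tested through 1 line only, 26.9% called, median difference -0.24). COL8A1, a short-chain collagen of vessel walls and corneal membrane, read 4.70, 4.64 and 4.68 in U-CH1 and 8.38, 8.06 and 7.29 in MUG-Chor1, a difference of 3.24 ± 0.26 (SE; limma adjusted p = 2.16e-05). The fibril collagen COL11A1 (1.77) and the microfibril collagen COL6A1 (1.61) were higher too. COL26A1 (-2.44), COL27A1 (-1.04), COL2A1 (-1.07) and the cartilage collagen COL9A3 (-1.0) were lower. COL2A1 lost its limma call without U-CH1 control 1 or 3 or MUG-Chor1 control 1 or 2 (adjusted p up to 0.136), and COL9A3 without U-CH1 control 1 or 2 or MUG-Chor1 control 1 or 2 (adjusted p up to 0.0828). In the collagen chains list the lower count of 4 was 2 without U-CH1 control 1 or MUG-Chor1 control 1 or 2. In the basement membrane list 3 were higher, 6 lower and 9 did not pass of 18 tested (25 measured of 27 listed, 1 tested through 1 line only, 50% called, median difference -0.28). LAMA2, the laminin chain of muscle and nerve sheaths, read 4.18, 5.37 and 6.10 in U-CH1 and 2.11, 2.04 and 1.98 in MUG-Chor1 (-3.17 ± 0.39, SE, passing the filter in U-CH1 only), and the nidogen NID2, which links laminin to collagen, read 3.48, 3.51 and 3.41 in U-CH1 and 6.52, 6.42 and 5.23 in MUG-Chor1 (2.59 ± 0.31, SE). The lines did not overlap for either gene. LAMB1 (-1.88), the laminin-related NTN4 (-1.49) and COL4A5 (-1.29) were also lower, and perlecan (HSPG2, 1.08) and agrin (AGRN, 0.81) higher. AGRN lost its limma call without U-CH1 control 1 or 2 or MUG-Chor1 control 1 or 2 (adjusted p up to 0.0913).

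Among cartilage proteoglycans and matrix proteins 1 was higher, 4 lower and 20 did not pass of 25 tested (31 measured of 32 listed, 2 tested through 1 line only, 20% called, median difference -0.17). Small leucine-rich proteoglycans, which bind collagen fibrils and set their spacing, went opposite ways. Fibromodulin (FMOD) read 7.48, 8.34 and 8.61 in U-CH1 and 10.71, 10.53 and 10.50 in MUG-Chor1, a difference of 2.43 ± 0.28 (SE; limma adjusted p = 0.000193), while lumican (LUM) read 9.0, 9.75 and 9.26 in U-CH1 and 7.54, 7.45 and 5.99 in MUG-Chor1 (-2.34 ± 0.38, SE). Every MUG-Chor1 array lay above U-CH1 for FMOD and below it for LUM, with control 3 the lowest array for LUM. The link protein HAPLN1 (-1.58), which ties aggrecan to hyaluronan, and CYTL1 (-1.42) were lower, as was EPYC. Among matricellular and fibrillar glycoproteins, which tune cell contact with the matrix, 9 were higher, 9 lower and 23 did not pass of 41 tested (48 measured of 49 listed, 1 tested through 1 line only, 43.9% called, median difference -0.13). MGP, an inhibitor of calcification, read 6.0, 6.59 and 6.48 in U-CH1 and 2.60, 2.65 and 2.33 in MUG-Chor1 (-3.83 ± 0.22, SE), and periostin (POSTN) read 5.45, 6.30 and 5.74 in U-CH1 and 2.22, 2.08 and 2.62 in MUG-Chor1 (-3.52 ± 0.25, SE). Every MUG-Chor1 array of both genes was close to the filter or below it, and every U-CH1 array was well above it. SMOC2 (-1.70) and fibrillin 2 (FBN2, -1.79) were lower as well, whereas fibrillin 1 (FBN1, 2.30), CCN3 (2.0), THBS1 (1.98) and THBS3 (1.56) were higher. FBN2 lost its limma call without U-CH1 control 1 or 2 or MUG-Chor1 control 1 or 2 (adjusted p up to 0.0916). The FBN2 difference was -2.41 without MUG-Chor1 control 3.

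Genes that build and edit the sugar chains of the matrix were called evenly in both directions. In the hyaluronan and glycosaminoglycan synthesis list 6 were higher, 6 lower and 20 did not pass of 32 tested (39 measured of 44 listed, 1 tested through 1 line only, 37.5% called, median difference 0.03). The hyaluronan synthase HAS2 read 5.75, 6.25 and 6.77 in U-CH1 and 3.96, 3.67 and 4.20 in MUG-Chor1, a difference of -2.32 ± 0.27 (SE; limma adjusted p = 0.000222). CHST15, which sulphates chondroitin (-2.43), the heparan sulphate editing enzyme SULF2 (-2.24) and the sulphate carrier SLC26A2 (-1.42), whose loss causes skeletal dysplasia, were lower too. CSGALNACT1 (1.35), which starts chondroitin chains, and EXT2 (0.93), which extends heparan sulphate, were higher. In the hyaluronan and glycosaminoglycan synthesis list the higher count of 6 was 2 without U-CH1 control 2 or 3 or MUG-Chor1 control 2, or 3 without MUG-Chor1 control 1. Of the membrane proteoglycans 4 were higher, 1 lower and 7 did not pass of 12 tested (14 measured of 14 listed, 0 tested through 1 line only, 41.7% called, median difference 0.17). Syndecan 1 (SDC1, -1.56) was lower, and the calls of the 4 higher genes, GPC1, GPC6, SDC2 and TGFBR3 (0.61 to 0.98), were lost with arrays left out. In the membrane proteoglycans list the higher count of 4 was 1 without U-CH1 control 1 or MUG-Chor1 control 2, or 2 without U-CH1 control 2 or 3, or 0 without MUG-Chor1 control 1.

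Of the enzymes that modify, fold and crosslink collagen, those that passed were lower with 1 exception. Of 27 genes listed, all were measured and tested, 4 through 1 line only, and 13 were lower, 1 higher and 13 did not pass (51.9% called, against 19.2% over all genes, and a median difference of -0.65, against -0.04). LOXL2, which crosslinks collagen and elastin, read 8.99, 8.70 and 9.04 in U-CH1 and 6.32, 6.44 and 5.63 in MUG-Chor1, a difference of -2.78 ± 0.24 (SE; limma adjusted p = 3.41e-05). P4HA1, the catalytic subunit of collagen prolyl hydroxylase, read 8.50, 8.91 and 8.91 in U-CH1 and 6.67, 6.33 and 6.37 in MUG-Chor1 (-2.32 ± 0.21, SE). No MUG-Chor1 array came near a U-CH1 array for either gene. The procollagen C-proteinase TLL1 (-2.89) and the procollagen N-proteinase ADAMTS3 (-1.95) were lower and passed the filter in U-CH1 only. The 1 higher gene was the lysyl oxidase relative LOXL4 (1.17), for which another probe set read a difference of 0.06 and was not called. LOXL4 lost its limma call without U-CH1 control 1 or 2 (adjusted p up to 0.097). In the collagen crosslinking and folding list the lower count of 13 was 8 without U-CH1 control 1 or 3. Among matrix proteases and their inhibitors 7 were higher, 6 lower and 25 did not pass of 38 tested (47 measured of 49 listed, 5 tested through 1 line only, 34.2% called, median difference -0.19). TIMP2, an inhibitor of metalloproteases, read 4.74, 4.51 and 4.45 in U-CH1 and 8.73, 8.80 and 7.93 in MUG-Chor1, a difference of 3.92 ± 0.25 (SE; limma adjusted p = 4.38e-06), and TIMP3, the matrix-bound inhibitor, read 3.92, 3.76 and 3.67 in U-CH1 and 6.81, 5.90 and 6.51 in MUG-Chor1 (2.62 ± 0.25, SE). No MUG-Chor1 array of either gene fell to the level of a U-CH1 array. The metalloprotease MMP19 (2.58) and ADAMTS12 (1.98) were higher, and the aggrecanase ADAMTS1 (-2.52), ADAM19 (-1.33) and the collagenase MMP1 (-1.10) lower. In the matrix proteases and inhibitors list the higher count of 7 was 4 without U-CH1 control 2 or MUG-Chor1 control 1 or 2, and its lower count of 6 was 3 without MUG-Chor1 control 2.

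**Figure D2:**
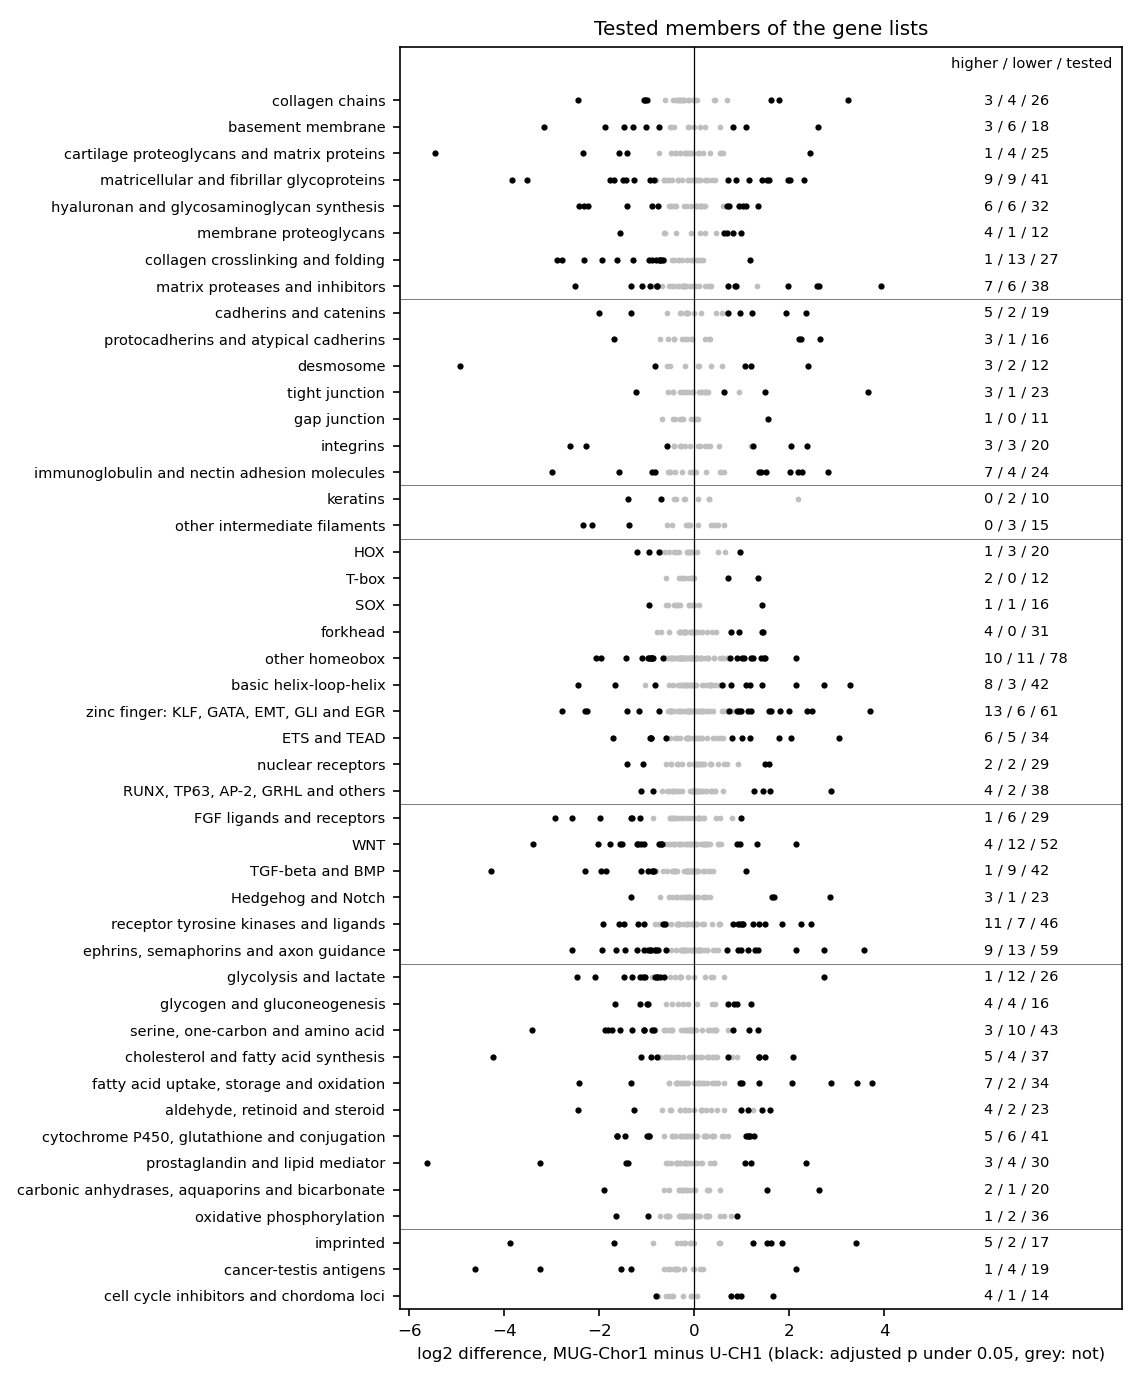
Log2 difference of MUG-Chor1 minus U-CH1 (x axis) for the tested members of 46 gene lists (y axis), black where the adjusted p was under 0.05 and grey where not; the figures on the right give the number higher, lower and tested. The collagen crosslinking list, with 13 lower and 1 higher, and the glycolysis list, with 12 lower and 1 higher, lean below 0, while most lists hold called genes on both sides.

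Cadherins, the calcium-dependent adhesion molecules of adherens junctions, differed by type. In the list of cadherins and catenins 5 were higher, 2 lower and 12 did not pass of 19 tested (26 measured of 29 listed, 1 tested through 1 line only, 36.8% called, median difference -0.01). CDH2 read 6.04, 6.11 and 6.54 in U-CH1 and 8.19, 8.11 and 8.17 in MUG-Chor1, a difference of 1.92 ± 0.20 (SE; limma adjusted p = 0.000113), and CDH10 read 5.44, 5.73 and 6.55 in U-CH1 and 7.95, 8.47 and 8.33 in MUG-Chor1 (2.34 ± 0.29, SE). E-cadherin (CDH1), the epithelial member, read 6.49, 6.37 and 6.11 in U-CH1 and 5.41, 4.87 and 4.68 in MUG-Chor1 (-1.34 ± 0.23, SE), and the CDH19 difference was -2.01. Every array of MUG-Chor1 was above U-CH1 for CDH2 and CDH10 and below it for CDH1. Plakoglobin (JUP, 1.21) and beta-catenin (CTNNB1, 0.97), which anchor cadherins to the cytoskeleton, were higher. Desmosomes bind neighbouring cells through desmosomal cadherins and link them to keratin through plaque proteins, and in their list 3 were higher, 2 lower and 7 did not pass of 12 tested (15 measured of 15 listed, 0 tested through 1 line only, 41.7% called, median difference 0.08). Desmoplakin (DSP), the link to keratin, read 7.82, 7.98 and 8.32 in U-CH1 and 3.15, 3.06 and 3.10 in MUG-Chor1, a difference of -4.94 ± 0.20 (SE; limma adjusted p = 2.57e-07), with no array of either line near the other. The desmosomal cadherin DSC3 (2.39), periplakin (PPL, 1.19) and plakophilin PKP2 (1.06) were higher, and PKP4 (-0.83) was lower. PKP4 lost its limma call without MUG-Chor1 control 1 or 2 (adjusted p up to 0.07).

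Tight junctions seal cell layers, and of their genes 3 were higher, 1 lower and 19 did not pass of 23 tested (32 measured of 35 listed, 0 tested through 1 line only, 17.4% called, median difference 0.11). The junctional adhesion molecule JAM3 read 2.87, 2.70 and 3.67 in U-CH1 and 6.77, 6.79 and 6.63 in MUG-Chor1, a difference of 3.65 ± 0.26 (SE; limma adjusted p = 7.9e-06), and no U-CH1 array came near the 3 MUG-Chor1 arrays. The polarity protein PARD3B (1.49) was higher and the claudin CLDN23 (-1.23) lower; TJP1 (0.63) was higher in limma. TJP1 lost its limma call without each of the 6 arrays in turn (adjusted p up to 0.106). Of 11 gap junction genes tested only the pannexin PANX1 (1.55) passed (15 measured of 19 listed, 9.09% called). Integrins bind matrix proteins, and of these 3 were higher, 3 lower and 14 did not pass of 20 tested (25 measured of 26 listed, 3 tested through 1 line only, 30% called, median difference -0.01). The collagen receptors ITGA11 and ITGA10 were lower: ITGA11 read 6.51, 6.32 and 6.28 in U-CH1 and 3.58, 4.78 and 2.86 in MUG-Chor1 (-2.63 ± 0.39, SE, limma adjusted p = 0.00103) and ITGA10 differed by -2.29. The laminin receptor chain ITGB4 (2.36), the vitronectin receptor chain ITGB3 (2.04) and the leukocyte chain ITGB2 (1.23) were higher. ITGB1, the chain shared by most matrix receptors, was lower by a small amount (-0.58). ITGB1 lost its limma call without each of the 6 arrays in turn (adjusted p up to 0.184).

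Adhesion molecules of the immunoglobulin type, many of them known from the nervous system, were called in both directions. In that list 7 were higher, 4 lower and 13 did not pass of 24 tested (30 measured of 32 listed, 4 tested through 1 line only, 45.8% called, median difference 0.01). NCAM1, the neural cell adhesion molecule, read 6.11, 5.46 and 5.50 in U-CH1 and 8.26, 8.51 and 8.75 in MUG-Chor1, a difference of 2.81 ± 0.24 (SE; limma adjusted p = 2.49e-05), and CHL1, a neural relative of L1, read 4.39, 5.48 and 4.97 in U-CH1 and 2.15, 1.67 and 2.03 in MUG-Chor1 (-2.99 ± 0.28, SE, passing the filter in U-CH1 only). The arrays were separate for both genes, in opposite directions. Neurofascin (NFASC, 2.27) was higher and IGSF3 (-1.59) lower. ICAM1 read 3.31, 3.35 and 2.85 in U-CH1 and 4.55, 4.24 and 6.75 in MUG-Chor1 and was higher by 2.01, but by 1.22 without MUG-Chor1 control 3. ICAM1 lost its limma call without U-CH1 control 1, 2 or 3 (adjusted p up to 0.0813). In the immunoglobulin and nectin adhesion molecules list the higher count of 7 was 3 without U-CH1 control 1, and its lower count of 4 was 2 without U-CH1 control 3 or MUG-Chor1 control 2. Of 9 tested neural markers (33.3% called), NCAM1 was higher and the neurofilaments NEFH (-2.34) and NEFL (-2.15) were lower. The mean log2 level of the 11 measured markers ran from 3.43 to 3.60 in U-CH1 and from 3.27 to 3.34 in MUG-Chor1. The part of these markers in the results was not tested. Of 15 intermediate filament genes other than keratins tested (2 through 1 line only, 20% called), these neurofilaments and INA (-1.39), an internexin of neurons, were lower. The other 12, vimentin (VIM, 0.44) among them, did not pass. Of 10 keratins tested (23 measured of 27 listed, 2 tested through 1 line only, 20% called), KRT15 (-1.41) and KRT19 were lower and 8 did not pass.

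The protocadherin beta genes were higher as a cluster. These genes stand in tandem in the annotation, encode single-exon surface cadherins, and are known from neurons, in which cells switch on different members through promoters that share a conserved element. Of 16 annotated genes 15 were measured and 14 tested, 6 of them through the filter in 1 line only, so the count is given as a description. In limma 12 were higher, against 10.5% of all genes (9 to 12 with each array left out), and PCDHB2 and PCDHB15 did not pass; these 12 form an unbroken run of neighbours among the coding genes tested, the longest of the comparison. PCDHB14 read 2.21, 2.79 and 3.86 in U-CH1 and 6.51, 6.52 and 6.46 in MUG-Chor1, a difference of 3.54 ± 0.35 (SE; limma adjusted p = 6.82e-05). PCDHB16 read 2.54, 2.0 and 2.78 in U-CH1 and 5.60, 5.82 and 5.64 in MUG-Chor1 (3.24 ± 0.23, SE), and PCDHB5 read 2.06, 2.65 and 3.31 in U-CH1 and 5.56, 5.22 and 5.45 in MUG-Chor1 (2.74 ± 0.29, SE). All MUG-Chor1 arrays were above all U-CH1 arrays for the 12 genes. The other differences ran from 0.90 for PCDHB3 to 2.37 for PCDHB7. PCDHB15 read 1.91, 1.62 and 2.63 in U-CH1 and 2.34, 1.67 and 1.96 in MUG-Chor1 and PCDHB2 read 2.54, 2.87 and 2.78 in U-CH1 and 2.66, 2.73 and 3.30 in MUG-Chor1. The lines overlapped for both. PCDHB3 lost its limma call without U-CH1 control 1 (adjusted p up to 0.0545), PCDHB11 without U-CH1 control 1 or 2 or MUG-Chor1 control 1 (adjusted p up to 0.0855), and PCDHB12 without U-CH1 control 1 or 3 or MUG-Chor1 control 1 or 2 (adjusted p up to 0.0903). The genes are close relatives, so probes of 1 member may also read another, and the identity of single members is uncertain. All 14 differences had the same sign in the pair of TNF-treated arrays, against 90.8% of called genes and 71.5% of all genes tested. PCDHB15 was below 0 both times (-0.07 in the controls, -0.25 on the pair).

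Promoter sequences of the cluster are shown because its members moved together. They are the 250 bases before the annotated start, plus strand of GRCh38.p14, from RefSeq, with capitals for the 8-base motif GTGGCGCT, which was chosen after the sequences were seen and searched on both strands (AGCGCCAC is its reverse complement). Members with a large, a middle and a small difference and 1 that did not pass are given, PCDHB14 (chr5:141223093-141223342), PCDHB7 (chr5:141172394-141172643), PCDHB3 (chr5:141100223-141100472) and PCDHB15 (chr5:141245145-141245394).
PCDHB14: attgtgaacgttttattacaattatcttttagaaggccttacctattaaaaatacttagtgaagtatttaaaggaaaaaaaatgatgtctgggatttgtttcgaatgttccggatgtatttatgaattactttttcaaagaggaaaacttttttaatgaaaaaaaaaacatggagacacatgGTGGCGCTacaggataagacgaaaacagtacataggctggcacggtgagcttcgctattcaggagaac
PCDHB7: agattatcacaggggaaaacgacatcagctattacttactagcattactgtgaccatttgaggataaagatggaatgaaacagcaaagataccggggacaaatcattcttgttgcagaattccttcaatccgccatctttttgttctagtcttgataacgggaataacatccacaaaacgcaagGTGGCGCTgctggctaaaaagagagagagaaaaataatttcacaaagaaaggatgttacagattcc
PCDHB3: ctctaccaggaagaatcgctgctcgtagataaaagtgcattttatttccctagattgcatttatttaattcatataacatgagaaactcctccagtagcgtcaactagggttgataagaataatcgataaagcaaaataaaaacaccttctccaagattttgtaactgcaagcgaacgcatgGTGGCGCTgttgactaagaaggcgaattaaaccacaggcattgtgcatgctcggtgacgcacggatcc
PCDHB15: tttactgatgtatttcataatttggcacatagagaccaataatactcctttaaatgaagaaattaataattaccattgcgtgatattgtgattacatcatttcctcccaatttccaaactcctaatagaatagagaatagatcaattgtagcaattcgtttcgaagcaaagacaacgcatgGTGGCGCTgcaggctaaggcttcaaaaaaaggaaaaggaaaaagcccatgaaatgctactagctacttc
The motif occurs in 12 of 14 protocadherin beta promoters available, each time on the forward strand. Over all promoters it occurs in 330 of 35116 windows of the same length (0.94%). These promoters are not those of the same genes as were tested. PCDHB6 and PCDHB11, both higher, had no promoter sequence, while PCDHB10, which is included, was not measured. PCDHB8, which was higher by 1.58, lacks these letters in the window, as does PCDHB1, which was not tested. The end of the PCDHB8 window closely matches PCDHB13 and stops at the first base of the PCDHB13 motif. The motif of PCDHB8 may therefore lie just past the window, and its absence there cannot be read. PCDHB2 and PCDHB15 hold the motif and did not pass, so its presence did not separate members that passed from those that did not. Other protocadherins also differed. In the list of non-clustered protocadherins and atypical cadherins 3 were higher, 1 lower and 12 did not pass of 16 tested (22 measured of 23 listed, 2 tested through 1 line only, 25% called, median difference -0.11), with PCDH9 (2.24), PCDH17 (2.21) and FAT3 (2.65) higher and PCDH18 (-1.69) lower. FAT3 lost its limma call without U-CH1 control 1 or MUG-Chor1 control 1 (adjusted p up to 0.052). The FAT3 difference was 3.56 without MUG-Chor1 control 3.

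**Figure D3:**
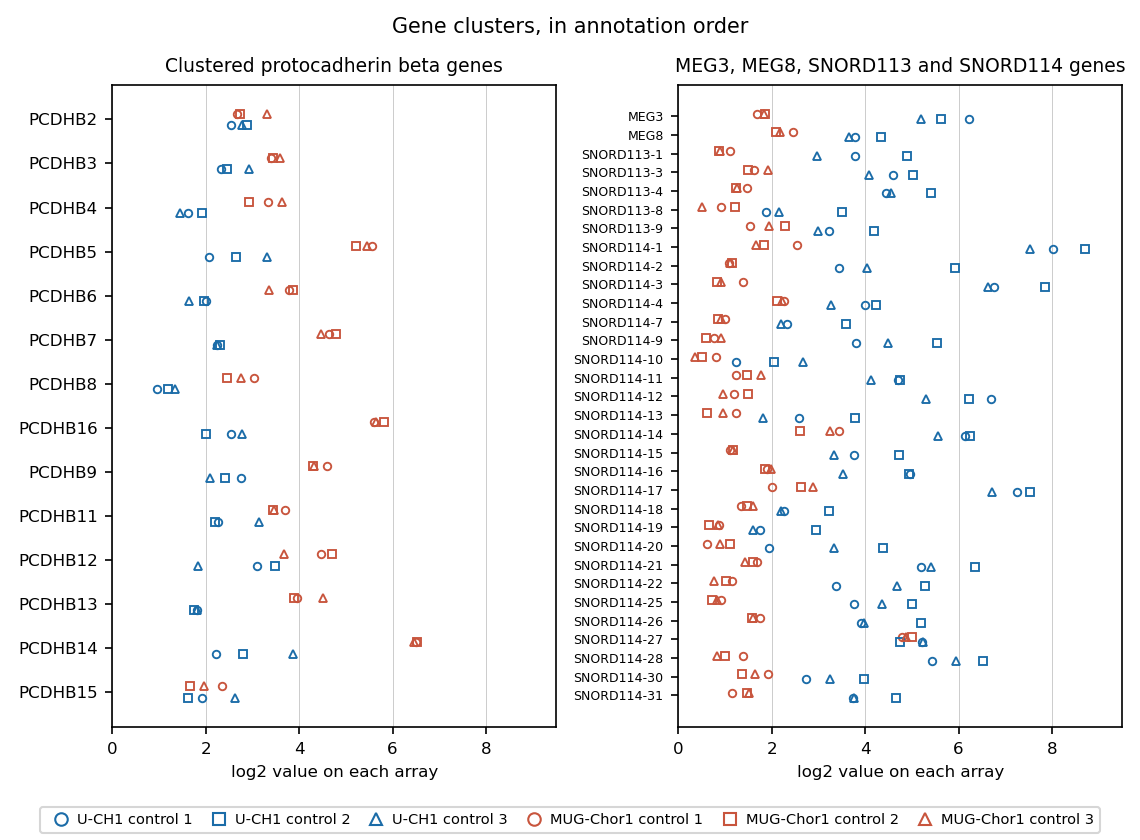
Log2 values on each control array (x axis) for the 14 tested protocadherin beta genes (left) and for MEG3, MEG8 and the 30 tested SNORD113 and SNORD114 genes (right), in annotation order, with blue for U-CH1 and red for MUG-Chor1. Red symbols lie to the right of blue for 12 protocadherins and to the left for all genes of the right panel except SNORD114-27.

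Patterning factors set position and lineage in the embryo. Of 20 HOX genes tested (27 measured of 42 listed, 3 tested through 1 line only, 20% called), HOXB13 (-1.22), HOXB3 (-0.96) and HOXB2 (-0.75) were lower, HOXA2 (0.95) was higher and 16 did not pass. HOXB3 lost its limma call without U-CH1 control 1, 2 or 3 or MUG-Chor1 control 2 or 3 (adjusted p up to 0.11), HOXB2 without U-CH1 control 1 or 2 or MUG-Chor1 control 2 or 3 (adjusted p up to 0.128), and HOXA2 without MUG-Chor1 control 1 (adjusted p up to 0.0553). Of 12 T-box genes tested, TBXT among them (17 measured of 17 listed, 1 tested through 1 line only, 16.7% called), TBX20 (1.34) and TBX3 (0.70) were higher and 10 did not pass. TBX3 lost its limma call without U-CH1 control 1, 2 or 3 or MUG-Chor1 control 1 or 2 (adjusted p up to 0.153). Of 16 SOX genes tested (3 through 1 line only, 12.5% called), SOX6 was higher and SOX4 (-0.95) lower, and 14 did not pass. SOX4 lost its limma call without U-CH1 control 3 or MUG-Chor1 control 2 (adjusted p up to 0.0797). Of 31 forkhead factors tested (35 measured of 38 listed, 12.9% called), FOXQ1 (1.44), FOXP2 (1.42), FOXE1 (0.95) and FOXJ3 (0.78) were higher and 27 did not pass. FOXE1 lost its limma call without U-CH1 control 1 or 3 or MUG-Chor1 control 1 or 3 (adjusted p up to 0.091), and FOXJ3 without U-CH1 control 1 or MUG-Chor1 control 1 or 2 (adjusted p up to 0.066). In the forkhead list the higher count of 4 was 2 without U-CH1 control 1 or MUG-Chor1 control 1, and its lower count of 0 was 2 without MUG-Chor1 control 3. Among the other homeobox genes 10 were higher, 11 lower and 57 did not pass of 78 tested (95 measured of 105 listed, 5 tested through 1 line only, 26.9% called, median difference -0.09). SIX3, a forebrain and eye factor, read 5.40, 4.40 and 4.75 in U-CH1 and 2.95, 2.77 and 2.93 in MUG-Chor1, a difference of -1.96 ± 0.25 (SE; limma adjusted p = 0.000437). SATB1, a chromatin organiser, read 2.98, 3.56 and 3.51 in U-CH1 and 5.71, 5.52 and 5.25 in MUG-Chor1 (2.14 ± 0.23, SE). Neither gene overlapped between the lines. CUX1 (-2.06) and LHX9 (-1.43) were lower, and POU3F3 (1.49), the limb factor SHOX2 (1.47) and the skull and limb factor ALX4 (1.04) higher. In the other homeobox list the higher count of 10 was 6 without U-CH1 control 1 or 2 or MUG-Chor1 control 1 or 2, or 4 without U-CH1 control 3, and its lower count of 11 was 6 without U-CH1 control 3, or 5 without MUG-Chor1 control 2.

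Zinc finger and basic helix-loop-helix factors held larger differences, with EGR1, SNAI2, MYC and BHLHE41 higher and ZIC5, ID4 and SNAI1 lower. In the zinc finger list 13 were higher, 6 lower and 42 did not pass of 61 tested (66 measured of 69 listed, 10 tested through 1 line only, 31.1% called, median difference 0.07). EGR1, an immediate early gene, read 4.54, 4.37 and 5.38 in U-CH1 and 8.38, 8.52 and 8.50 in MUG-Chor1, a difference of 3.70 ± 0.26 (SE; limma adjusted p = 7.9e-06). The paralogs SNAI1 and SNAI2, both repressors of E-cadherin, went opposite ways. SNAI2 read 7.35, 6.54 and 7.70 in U-CH1 and 9.56, 9.83 and 9.28 in MUG-Chor1 (2.36 ± 0.29, SE) and SNAI1 read 5.71, 5.53 and 6.66 in U-CH1 and 3.60, 3.60 and 3.90 in MUG-Chor1 (-2.26 ± 0.29, SE). Every MUG-Chor1 array was above U-CH1 for SNAI2 and below it for SNAI1. KLF12 (2.47), the zinc finger oncogene PLAG1 (1.99, tested through MUG-Chor1 only) and SALL3 (1.81) were higher, and ZIC5 (-2.79), ZIC2 (-2.29), factors of the neural midline, and the hedgehog effector GLI3 (-1.42) lower. Of basic helix-loop-helix factors 8 were higher, 3 lower and 31 did not pass of 42 tested (49 measured of 53 listed, 4 tested through 1 line only, 26.2% called, median difference 0.00). MYC, which drives growth and ribosome production, read 3.38, 3.68 and 2.94 in U-CH1 and 6.0, 6.43 and 5.76 in MUG-Chor1 (2.73 ± 0.25, SE, limma adjusted p = 4.61e-05), and the clock repressor BHLHE41 read 3.38, 3.03 and 3.84 in U-CH1 and 6.60, 6.56 and 6.95 in MUG-Chor1 (3.28 ± 0.24, SE). The groups were apart for both. Its paralog BHLHE40 (1.43) and the Notch target HES1 (2.14) were higher, and the inhibitor ID4 (-2.44) and HES6 (-1.68) lower. HES1 lost its limma call without U-CH1 control 1 or 2 (adjusted p up to 0.065). The HES1 difference was 2.82 without U-CH1 control 3. In the basic helix-loop-helix list the higher count of 8 was 5 without U-CH1 control 1 or MUG-Chor1 control 1 or 2, or 4 without U-CH1 control 2.

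Among ETS and TEAD factors and their partners 6 were higher, 5 lower and 23 did not pass of 34 tested (36 measured of 36 listed, 2 tested through 1 line only, 32.4% called, median difference -0.01). VGLL3, a TEAD cofactor, read 2.71, 2.45 and 2.63 in U-CH1 and 5.81, 5.26 and 5.83 in MUG-Chor1, a difference of 3.04 ± 0.22 (SE; limma adjusted p = 8.03e-06). The Hippo pathway factors TEAD2 (2.03) and TEAD4 (-1.72) went opposite ways, and ELF1 (1.77) was higher and ETS2 (-0.92) and ETV6 (-0.91) lower. Of nuclear receptors 2 were higher, 2 lower and 25 did not pass of 29 tested (37 measured of 48 listed, 2 tested through 1 line only, 13.8% called, median difference 0.06). The fat cell regulator PPARG read 4.22, 4.23 and 4.58 in U-CH1 and 6.33, 5.90 and 5.23 in MUG-Chor1 (1.48 ± 0.27, SE, limma adjusted p = 0.00383), the clock receptor NR1D2 differed by 1.57, and the vitamin D receptor VDR read 6.12, 5.58 and 6.22 in U-CH1 and 4.59, 4.45 and 4.59 in MUG-Chor1 (-1.43 ± 0.22, SE). Groups were separate for both, with PPARG higher and VDR lower, and the mineralocorticoid receptor NR3C2 (-1.08) was also lower. NR3C2 lost its limma call without U-CH1 control 1 (adjusted p up to 0.0527). Of a mixed list of RUNX, TP63, AP-2 and further factors 4 were higher, 2 lower and 32 did not pass of 38 tested (46 measured of 55 listed, 5 tested through 1 line only, 15.8% called, median difference 0.05). MAF read 3.74, 4.05 and 3.93 in U-CH1 and 7.02, 7.15 and 6.21 in MUG-Chor1, a difference of 2.88 ± 0.26 (SE; limma adjusted p = 3.95e-05). MEF2C (1.58), TP73 (1.45) and NFATC1 (1.26) were higher and TFAP2C (-1.13) lower, the last tested through U-CH1 only. In the RUNX, TP63, AP-2, GRHL and others list the lower count of 2 was 1 without MUG-Chor1 control 1 or 2.

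Of the FGF, WNT and TGF-beta pathway genes that passed, most were lower. In the FGF list 1 was higher, 6 lower and 22 did not pass of 29 tested (39 measured of 40 listed, 6 tested through 1 line only, 24.1% called, median difference -0.30). DUSP6, a phosphatase induced by FGF and ERK signalling, read 6.06, 6.02 and 7.42 in U-CH1 and 2.64, 3.63 and 4.47 in MUG-Chor1, a difference of -2.93 ± 0.47 (SE; limma adjusted p = 0.00159). The FGF carriers FGFBP2 (-2.58, tested through U-CH1 only) and FGFBP1 (-1.99) were lower, and FGF2 (-1.33) was too. FGF2 lost its limma call without U-CH1 control 1 or 3 or MUG-Chor1 control 1 or 2 (adjusted p up to 0.0748). The FGFBP2 difference was -3.29 without U-CH1 control 3. The 1 higher member was the receptor FGFR2 (0.99), whose arrays overlapped and whose difference was -0.26 on the pair of TNF-treated arrays. FGFR2 lost its limma call without U-CH1 control 1, 2 or 3 or MUG-Chor1 control 1 or 2 (adjusted p up to 0.177). Of WNT pathway genes 4 were higher, 12 lower and 36 did not pass of 52 tested (59 measured of 61 listed, 4 tested through 1 line only, 30.8% called, median difference -0.17). The ligand WNT8A read 5.37, 5.90 and 6.82 in U-CH1 and 2.46, 2.77 and 2.69 in MUG-Chor1 (-3.39 ± 0.32, SE, limma adjusted p = 5.42e-05). Receptors moved apart: FZD4 (-2.04), FZD3 (-1.77) and ROR1 (-1.57) were lower, whereas FZD6 read 4.66, 4.92 and 4.87 in U-CH1 and 6.41, 7.04 and 7.45 in MUG-Chor1 (2.15 ± 0.26, SE) and was higher, with the nuclear effector TCF7L2 (1.32). The lines did not overlap for WNT8A or FZD6. In the WNT list the higher count of 4 was 2 without U-CH1 control 3 or MUG-Chor1 control 2. Of TGF-beta and BMP genes 1 was higher, 9 lower and 32 did not pass of 42 tested (51 measured of 54 listed, 3 tested through 1 line only, 23.8% called, median difference -0.17). BMP6, a ligand of bone and cartilage growth, read 6.93, 6.80 and 7.86 in U-CH1 and 3.12, 2.74 and 2.91 in MUG-Chor1, a difference of -4.28 ± 0.28 (SE; limma adjusted p = 4.92e-06). The decoy receptor BAMBI (-2.30), the BMP antagonist CHRDL1 (-1.96) and the ligand TGFB2 (-1.87) were lower, and TWSG1 (1.09), a BMP-binding protein, was the only member higher in limma.

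Notch and Hedgehog genes had 4 calls of 23 tested (26 measured of 27 listed, 3 tested through 1 line only). This was 17.4% called, against 19.2% over all genes. The Notch ligand JAG1 read 5.57, 5.39 and 5.45 in U-CH1 and 8.65, 8.39 and 7.92 in MUG-Chor1, a difference of 2.85 ± 0.22 (SE; limma adjusted p = 1.53e-05), and another ligand, DLL1, was lower (-1.35). The Hedgehog co-receptors CDON (1.67) and GAS1 (1.64) were higher. Of receptor tyrosine kinases and their ligands 11 were higher, 7 lower and 28 did not pass of 46 tested (55 measured of 66 listed, 3 tested through 1 line only, 39.1% called, median difference -0.08). KDR read 4.20, 4.63 and 5.04 in U-CH1 and 7.52, 7.19 and 6.51 in MUG-Chor1 (2.45 ± 0.29, SE, limma adjusted p = 0.000278), and IGF1R, the receptor for insulin-like growth factors, read 4.01, 4.10 and 4.40 in U-CH1 and 6.67, 6.27 and 6.32 in MUG-Chor1 (2.25 ± 0.20, SE). Both were higher in every MUG-Chor1 array than in any U-CH1 array. AXL (1.85) and the insulin receptor INSR (1.48) were higher as well. EGFR read 8.81, 8.51 and 8.57 in U-CH1 and 7.56, 7.17 and 7.61 in MUG-Chor1 (-1.19 ± 0.20, SE) and was lower together with its ligand TGFA (-1.93) and the ERBB4 ligand NRG4 (-1.48, tested through U-CH1 only). In the receptor tyrosine kinases and ligands list the lower count of 7 was 4 without MUG-Chor1 control 1. Of ephrins, semaphorins and other axon guidance genes 9 were higher, 13 lower and 37 did not pass of 59 tested (63 measured of 67 listed, 7 tested through 1 line only, 37.3% called, median difference -0.04). UNC5C and NEO1, both netrin receptors, were higher: UNC5C read 2.55, 2.59 and 2.09 in U-CH1 and 5.76, 5.44 and 6.74 in MUG-Chor1 (3.57 ± 0.31, SE, limma adjusted p = 3.56e-05) and NEO1 read 2.67, 2.89 and 3.01 in U-CH1 and 5.72, 5.69 and 5.36 in MUG-Chor1 (2.73 ± 0.20, SE). All 6 arrays of each gene fell into groups by line. SEMA3B (2.13) and SEMA6D (1.35) were higher, and SEMA3E (-2.58), the plexin PLXNA2 (-1.95), EPHA4 (-1.65) and the semaphorin and VEGF receptor NRP2 (-1.47) lower. In the ephrins, semaphorins and axon guidance list the lower count of 13 was 8 without MUG-Chor1 control 2.

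In metabolism, glycolysis genes that passed were nearly all lower. Of 32 listed genes 29 were measured and 26 tested, 1 through 1 line only, and 12 were lower, 1 higher and 13 did not pass (50% called, against 19.2% over all genes, and a median difference of -0.57, against -0.04). With each array left out 8 to 11 were lower. The aldolase ALDOC read 5.40, 5.67 and 6.51 in U-CH1 and 3.16, 3.36 and 3.66 in MUG-Chor1, a difference of -2.47 ± 0.28 (SE; limma adjusted p = 0.000211). The glucose transporter SLC2A3 (-2.08, tested through U-CH1 only), the triose phosphate isomerase TPI1 (-1.49) and the phosphofructokinase PFKP (-1.31) were lower, and the other 8 were HK1, HK2, PFKM, GAPDH, PGK1, LDHB, PDK1 and PDK3. Several of these enzymes have processed pseudogenes, so their probe sets may read related copies. PDK4, a pyruvate dehydrogenase kinase, read 4.73, 5.06 and 5.29 in U-CH1 and 7.37, 7.62 and 8.24 in MUG-Chor1 (2.72 ± 0.26, SE). It was the 1 gene higher. The control arrays did not overlap for PDK4 or ALDOC, but PDK4 had the other sign on the pair of TNF-treated arrays (-1.47). In the glycogen list 4 were higher, 4 lower and 8 did not pass of 16 tested (20 measured of 21 listed, 0 tested through 1 line only, 50% called, median difference -0.19). The glycogen targeting subunits PPP1R3C (1.20) and PPP1R3B (-1.67) went opposite ways, GYG2 (0.90) was higher, and the phosphorylase PYGB (-1.15) was lower. In the glycogen and gluconeogenesis list the higher count of 4 was 2 without U-CH1 control 1 or 3 or MUG-Chor1 control 2, and its lower count of 4 was 2 without U-CH1 control 3. Of 36 oxidative phosphorylation and citric acid cycle genes tested (39 measured of 48 listed), 33 did not pass, and IDH2 (-1.64) and CKB (-0.98) were lower and SUCLA2 (0.89) higher (8.33% called, against 19.2% over all genes). CKB lost its limma call without U-CH1 control 1 or 3 or MUG-Chor1 control 1 or 2 (adjusted p up to 0.0899), and SUCLA2 without U-CH1 control 1 or 3 or MUG-Chor1 control 1 (adjusted p up to 0.123). The list's lower count of 2 was 4 without MUG-Chor1 control 3.

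**Figure D4:**
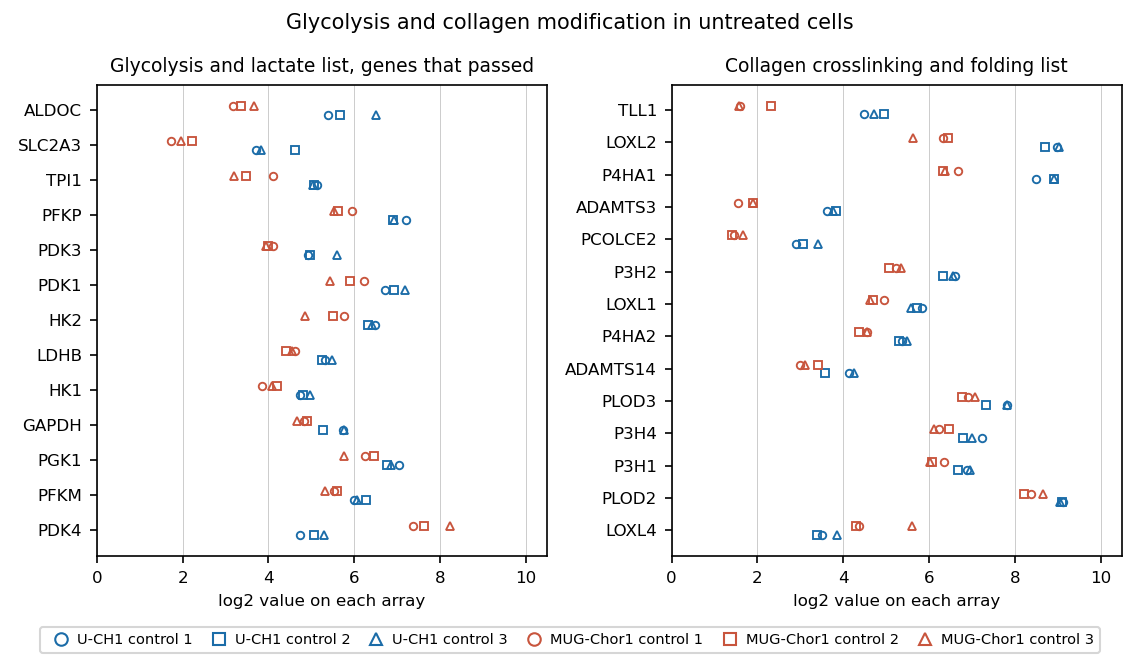
Log2 values on each control array (x axis) for the 13 genes of the glycolysis and lactate list and the 14 genes of the collagen crosslinking and folding list that passed (y axis), with blue for U-CH1 and red for MUG-Chor1. PDK4 and LOXL4 at the bottom are the only genes with red to the right of blue.

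Enzymes of arginine, serine and proline synthesis were among the lower genes of amino acid metabolism, and glutamine synthetase among the higher. Of serine, one-carbon and amino acid genes 3 were higher, 10 lower and 30 did not pass of 43 tested (45 measured of 48 listed, 1 tested through 1 line only, 30.2% called, median difference -0.18). ASS1, which makes argininosuccinate on the way to arginine, read 7.30, 7.18 and 8.17 in U-CH1 and 4.12, 3.83 and 4.42 in MUG-Chor1, a difference of -3.43 ± 0.28 (SE; limma adjusted p = 2.16e-05). PSAT1 of serine synthesis read 7.42, 7.22 and 7.72 in U-CH1 and 5.49, 5.76 and 5.48 in MUG-Chor1 (-1.88 ± 0.21, SE), and PYCR1 of proline synthesis (-1.81) and the mitochondrial folate enzyme MTHFD1L (-1.73) were lower too. No array of the lines overlapped for ASS1 or PSAT1. Glutamine synthetase (GLUL, 1.33) and the amino acid transporter chain SLC3A2 (1.16) were higher. In the list of cholesterol and fatty acid synthesis 5 were higher, 4 lower and 28 did not pass of 37 tested (38 measured of 49 listed, 0 tested through 1 line only, 24.3% called, median difference -0.01). ELOVL2 read 6.34, 6.27 and 6.70 in U-CH1 and 1.86, 2.12 and 2.65 in MUG-Chor1 (-4.23 ± 0.24, SE, limma adjusted p = 1.78e-06), and its relative ELOVL7 (2.07) was higher, as were the desaturase FADS2 (1.49), the sterol desaturase SC5D (1.37) and GPAM (1.36) of triglyceride synthesis. DGAT2 (-1.12) and IDI1 (-0.92) were lower.

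Several genes of fatty acid uptake and binding were higher. In the list of fatty acid uptake, storage and oxidation 7 were higher, 2 lower and 25 did not pass of 34 tested (39 measured of 41 listed, 5 tested through 1 line only, 26.5% called, median difference 0.08). The fatty acid binding protein FABP4 of fat cells and macrophages read 1.37, 1.82 and 2.49 in U-CH1 and 5.90, 6.49 and 4.47 in MUG-Chor1, a difference of 3.73 ± 0.46 (SE; limma adjusted p = 0.000309), and PMP2, a related protein of myelin, read 2.09, 2.66 and 3.49 in U-CH1 and 6.77, 6.03 and 5.70 in MUG-Chor1 (3.42 ± 0.36, SE). The fatty acid transporter CD36 read 1.95, 1.94 and 1.76 in U-CH1 and 4.09, 4.69 and 3.04 in MUG-Chor1 (2.06 ± 0.35, SE). All MUG-Chor1 arrays were above all U-CH1 arrays for the 3 genes, and MUG-Chor1 control 3 was the lowest of its line for FABP4 and CD36. CPT1C (2.88) and lipoprotein lipase (LPL, 1.0) were higher, and the bile acid binding protein FABP6 (-2.43) and the oxidation enzyme ACADVL (-1.33) lower. FABP4, CD36 and LPL passed the filter in MUG-Chor1 only. In the fatty acid uptake, storage and oxidation list the lower count of 2 was 4 without U-CH1 control 2. Of 5 tested adipocyte markers (60% called) FABP4, LPL and PPARG were higher. ADIPOQ (-0.43) and PLIN1 (-0.30) did not pass, and LEP and CIDEC lay below the filter on all 6 arrays. The mean log2 level of the 7 measured markers ran from 2.43 to 2.66 in U-CH1 and from 2.99 to 3.48 in MUG-Chor1. Their part in these results was not tested.

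Of aldehyde, retinoid and steroid genes 4 were higher, 2 lower and 17 did not pass of 23 tested (35 measured of 40 listed, 6 tested through 1 line only, 26.1% called, median difference 0.14). The aldehyde dehydrogenase ALDH3A1 (1.59), the steroid sulphatase STS (1.42) and the retinol dehydrogenase RDH10 (0.98) were higher, and ALDH1B1 (-1.27) and CYP11A1 (-2.45), which cuts the side chain of cholesterol, lower. Among cytochromes P450, glutathione and conjugation genes 5 were higher, 6 lower and 30 did not pass of 41 tested (49 measured of 53 listed, 9 tested through 1 line only, 26.8% called, median difference -0.05). GSTP1 (1.17), UGT8 (1.25) and GSTO2 (1.15) were higher, and GSTM3 (-1.63), CYP39A1 (-1.64) and the vitamin D hydroxylase CYP24A1 (-1.47, tested through U-CH1 only) lower. In the cytochrome P450, glutathione and conjugation list the higher count of 5 was 3 without U-CH1 control 1. Of prostaglandin and lipid mediator genes 3 were higher, 4 lower and 23 did not pass of 30 tested (37 measured of 41 listed, 5 tested through 1 line only, 23.3% called, median difference -0.20). ENPP2, the autotaxin that makes lysophosphatidic acid, read 9.07, 9.52 and 9.77 in U-CH1 and 6.25, 5.77 and 6.58 in MUG-Chor1, a difference of -3.25 ± 0.26 (SE; limma adjusted p = 1.95e-05), and another probe set of the gene gave -1.73. The prostaglandin reductase PTGR1 read 2.75, 3.50 and 3.92 in U-CH1 and 5.59, 5.15 and 6.49 in MUG-Chor1 (2.35 ± 0.37, SE). ENPP2 was lower and PTGR1 higher on every array, and PTGS2 (1.07) and PLA2G5 (1.18) were higher and PLA2G4A (-1.39) lower beside HPGDS. The lysophosphatidic acid receptor LPAR1 was lower too (-1.44, and -0.79 without MUG-Chor1 control 3). LPAR1 lost its limma call without U-CH1 control 1, 2 or 3 or MUG-Chor1 control 1 (adjusted p up to 0.156). Of 20 genes of carbonic anhydrases, aquaporins and bicarbonate transport tested (31 measured of 33 listed, 15% called), CA2 (2.63) and CA5B (1.53) were higher and SLC4A11 (-1.90) lower. For CA5B another probe set gave 0.60 and did not pass. CA5B lost its limma call without U-CH1 control 1 or 2 (adjusted p up to 0.071).

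Of the noncoding RNAs of the DLK1 to DIO3 interval, MEG3, MEG8 and most tested small nucleolar RNA genes were lower in MUG-Chor1. MEG9 and most tested microRNA genes did not pass, and 31 of the 51 measured microRNA genes lay below the filter on all 6 arrays. The interval is an imprinted cluster whose maternal copy makes long noncoding RNA, small nucleolar RNAs and microRNAs. MEG3, the long noncoding RNA of the cluster, read 6.22, 5.62 and 5.20 in U-CH1 and 1.68, 1.86 and 1.83 in MUG-Chor1, a difference of -3.89 ± 0.25 (SE; limma adjusted p = 5.1e-06), and MEG8 differed by -1.69. Both passed the filter in U-CH1 only, and MEG9 (-0.61) did not pass the test (limma adjusted p = 0.142). All 40 annotated SNORD113 and SNORD114 genes were measured, 10 lay below the filter on all 6 arrays and 30 were tested. In limma 29 were lower and did not overlap (28 to 29 lower with each array left out), against 8.69% lower and 36.6% without overlap over all genes. However, 27 of the 30 entered the test only because they were above the filter in U-CH1, so their count describes these genes and supports nothing further. SNORD114-1 read 8.02, 8.71 and 7.52 in U-CH1 and 2.53, 1.83 and 1.67 in MUG-Chor1 (-6.07 ± 0.32, SE) and SNORD114-3 read 6.75, 7.84 and 6.64 in U-CH1 and 1.38, 0.82 and 0.92 in MUG-Chor1 (-6.04 ± 0.31, SE). All U-CH1 arrays of both were well above the filter and all MUG-Chor1 arrays below it. SNORD114-27 read 5.22, 4.75 and 5.23 in U-CH1 and 4.79, 5.0 and 4.88 in MUG-Chor1 and did not pass. The copies are alike in sequence, so probes may read more than 1 of them and the identity of single copies is uncertain. Outside this group, 20 snoRNA genes of 128 tested were higher and 9 lower (22.7% called, close to the 19.2% over all genes). Coding genes expressed mainly from the paternal copy lie at both ends of the interval. DLK1, at one end, lay near the filter, at 3.03, 2.66 and 2.16 in U-CH1 and 2.54, 2.14 and 2.31 in MUG-Chor1. It passed the filter in U-CH1 only and was not called (-0.29, limma adjusted p = 0.474). DIO3, the deiodinase that inactivates thyroid hormone, read 5.25, 4.46 and 4.84 in U-CH1 and 1.82, 2.16 and 2.04 in MUG-Chor1 and was lower (-2.84 ± 0.23, SE, limma adjusted p = 2.16e-05), passing the filter in U-CH1 only. Of other imprinted genes, MEST read 3.17, 2.65 and 2.61 in U-CH1 and 6.33, 5.92 and 6.40 in MUG-Chor1 (3.41 ± 0.23, SE, limma adjusted p = 5.7e-06), and PEG10 (1.85), SGCE (1.53) and PLAGL1 (1.62) were higher. Across the imprinted list 5 were higher, 2 lower and 10 did not pass of 17 tested (19 measured of 25 listed, 4 tested through 1 line only, 41.2% called, median difference -0.07). PLAGL1 lost its limma call without U-CH1 control 1, 2 or 3 (adjusted p up to 0.0918). The PLAGL1 difference was 0.97 without MUG-Chor1 control 3.

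Of 429 microRNA genes tested, 85 of them through 1 line only, 11 were higher and 13 lower (5.59% called, against 19.2% over all genes). Between DLK1 and DIO3, 51 microRNA genes were measured, and 31 lay below the filter on all 6 arrays. Of the 20 tested there, 6 through 1 line only, MIR1185-2, MIR323B and MIR382 were lower and 17 did not pass (15% called). Their median difference was -0.49, against -0.13 over all microRNA genes tested. The probe sets read the gene or its precursor and not the mature form. Mature sequences of 22 of the 24 called genes were matched by name to RefSeq (GRCh38.p14). A few are shown because they share a seed, bases 2 to 8 from the 5′ end, printed in capitals, or because the gene differed most; beyond MIR4500 they, and the genes that hold them, were chosen after their values were seen. They lie at chr17:59841273-59841294 and chr7:74191213-74191234 on the plus strand (miR-21-5p and miR-590-5p), chr22:21653354-21653375 and chr10:112634180-112634197 on the plus strand (miR-130b-3p and miR-4295), chr13:87618671-87618687 and chr1:198858925-198858947 on the minus strand (miR-4500 and miR-181b-5p), and chr7:136903242-136903263 on the plus strand (miR-490-3p).
miR-21-5p: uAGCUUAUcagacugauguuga
miR-590-5p: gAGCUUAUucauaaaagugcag
miR-130b-3p: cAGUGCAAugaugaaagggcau
miR-4295: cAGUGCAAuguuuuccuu
miR-4500: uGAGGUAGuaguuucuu
miR-181b-5p: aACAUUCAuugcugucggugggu
miR-490-3p: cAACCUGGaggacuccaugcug
MIR21, whose product is abundant in many tumours, read 3.64, 5.30 and 4.05 in U-CH1 and 6.06, 6.03 and 6.64 in MUG-Chor1, a difference of 1.91 ± 0.37 (SE; limma adjusted p = 0.00516), and MIR590, which shares its seed, was higher too (1.22). MIR130B (-1.14) and MIR4295 (1.48) share another seed and went opposite ways. MIR4500, whose seed is that of the let-7 family, read 3.70, 4.41 and 3.62 in U-CH1 and 7.03, 5.79 and 7.33 in MUG-Chor1 (2.81 ± 0.37, SE). MIR181B1 read 5.51, 5.11 and 6.66 in U-CH1 and 3.56, 2.73 and 4.60 in MUG-Chor1 (-2.13 ± 0.47, SE) and was the microRNA gene furthest below U-CH1. MIR590 lost its limma call without U-CH1 control 1 or 2 or MUG-Chor1 control 2 (adjusted p up to 0.0729), and MIR130B without U-CH1 control 1 or 2 or MUG-Chor1 control 2 or 3 (adjusted p up to 0.111). Some of these genes lie inside larger genes in the annotation. Of 13 tested genes whose span holds a called microRNA gene, on either strand, 13 differed in the same direction as it. Of them 9 passed, against 19.2% called over all genes. A microRNA probe set may also read the transcript of the gene around it, so these counts are a description and no test. MIR490 (1.99) lies within CHRM2 (4.77), and MIR568 (2.46) within ZBTB20 (1.90). MIR4287 (-1.41) lies within SCARA5, a ferritin receptor (-3.62). MIR4287 lost its limma call without U-CH1 control 1 or 3 or MUG-Chor1 control 1 (adjusted p up to 0.0633).

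Cancer-testis antigens, genes normally silent outside the germ line, included large differences. Of 19 tested (35 measured of 49 listed, 3 tested through 1 line only, 26.3% called), MAGEC2 (-4.62), MAGEC1 (-3.26), PAGE1 (-1.54) and SSX1 (-1.33) were lower. TEX14 (2.13) was higher and 14 did not pass. SSX1 lost its limma call without U-CH1 control 3 or MUG-Chor1 control 1, 2 or 3 (adjusted p up to 0.0699). MAGEC1 and PAGE1 passed the filter in U-CH1 only, and members of these families have near-identical copies. Of genes at loci often altered in chordoma, CDKN2A, a cell cycle inhibitor, read 1.60, 1.88 and 1.82 in U-CH1 and 1.31, 1.67 and 1.40 in MUG-Chor1 and was below the filter in both lines. Its neighbour MTAP read 2.36 ± 0.52 (SD, n = 3) in U-CH1 and 1.89 ± 0.23 (SD, n = 3) in MUG-Chor1 and did not pass (-0.46, limma adjusted p = 0.273). Across that list 4 were higher, 1 lower and 9 did not pass of 14 tested (17 measured of 19 listed, 1 tested through 1 line only, 35.7% called, median difference -0.15). The tumour suppressor RB1 read 5.42, 5.69 and 5.80 in U-CH1 and 7.14, 7.10 and 7.65 in MUG-Chor1, a difference of 1.66 ± 0.22 (SE; limma adjusted p = 0.000475), and its arrays did not overlap. LYST (0.98), CCND1 (0.90) and PBRM1 (0.77) were higher and MDM2 (-0.81) lower. LYST lost its limma call without U-CH1 control 1 (adjusted p up to 0.0538), CCND1 without U-CH1 control 2 or MUG-Chor1 control 1 or 2 (adjusted p up to 0.0792), PBRM1 without U-CH1 control 3 or MUG-Chor1 control 1 or 2 (adjusted p up to 0.0653), and MDM2 without U-CH1 control 2 or 3 or MUG-Chor1 control 1 or 2 (adjusted p up to 0.116). In the cell cycle inhibitors and chordoma loci list the higher count of 4 was 2 without MUG-Chor1 control 1 or 2.

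In places, neighbouring genes differed in the same direction. Among 13898 tested coding genes in annotation order, 203 lay in 39 runs of at least 4 neighbours called the same way, 21 higher and 18 lower. Runs were also joined across gaps of at most 6 genes, a choice made after values were seen, and the longest stretch then went from KBTBD7 to FNDC3A. Since called genes were used to build the stretches, their counts describe them and are no test, beside 10.5% higher and 8.69% lower over all genes. The stretch from KBTBD7 to FNDC3A holds RB1 and DNAJC15, and 28 of its 31 tested genes were higher. All 31 differences were above 0 and their median was 1.47 (25 to 28 higher with each array left out). ESD differed by 2.23 and ITM2B by 1.37. From ID4 to CARMIL1, 11 of 14 tested genes were lower, among them E2F3, SOX4 and GMNN (median -1.01), and from RABEP1 to MED31 11 of 14 were lower (median -0.98). From ANKRD12 to TUBB6 9 of 12 were higher (median 0.91), among them TWSG1, and from NCBP2AS2 to RPL35A 8 of 9 (median 1.18), among them MELTF and DLG1. In the ID4 to CARMIL1 stretch the lower count of 11 was 7 without U-CH1 control 3 or MUG-Chor1 control 1 or 2. In the RABEP1 to MED31 stretch the lower count of 11 was 7 without MUG-Chor1 control 2. In the NCBP2AS2 to RPL35A stretch the higher count of 8 was 5 without U-CH1 control 2. A run of 8 lower genes went from RFLNB to TIMM22, and runs of 7 higher genes from LHPP to EDRF1 and from ZNF324 to MZF1.

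**Figure D5:**
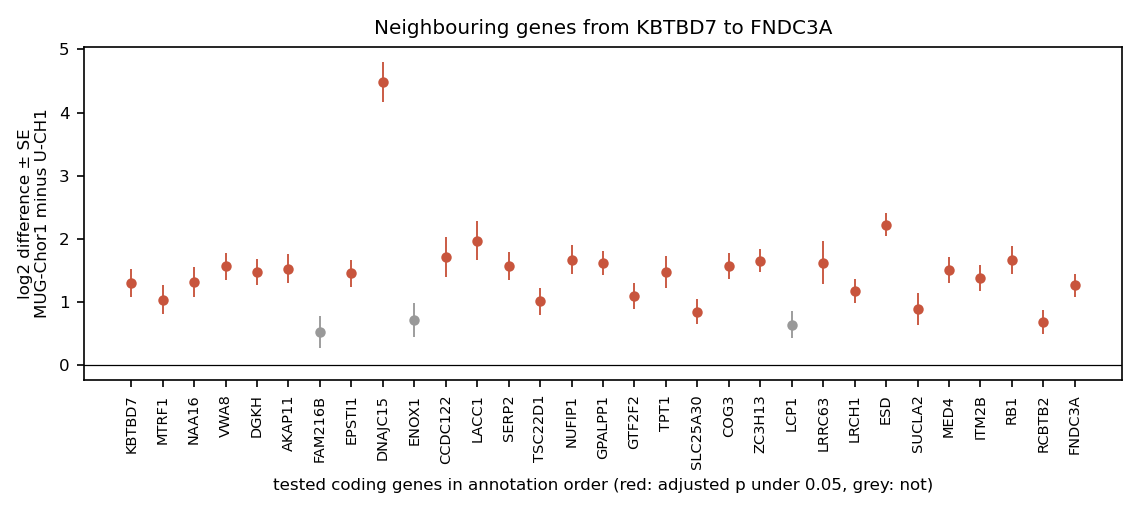
Log2 difference of MUG-Chor1 minus U-CH1 with its SE (y axis) for the 31 tested coding genes from KBTBD7 to FNDC3A in annotation order (x axis), red where the adjusted p was under 0.05 and grey where not. All 31 lie above 0, DNAJC15 highest, and the 3 grey points are FAM216B, ENOX1 and LCP1.

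The pair of arrays from TNF-treated cells, 1 per line, gave each called gene a value from samples outside the test. These cells had TNF-α at 10 ng/mL for 1 week, and the pair has no replicate. MUG-Chor1 minus U-CH1 had the same sign there for 2905 of 3201 called genes (90.8%), against 71.5% of all 16671 tested. Of the 391 genes with a difference of at least 2, 362 kept the sign (92.6%), 293 with a difference of at least 1 the same way and 6 the other way (RNASE2CP, CDH10, PDK4, GBP4, HHLA2 and LUM). DSP gave -3.21 on the pair, MEG3 -3.72 and CDH2 1.32. Other named genes kept the sign with a difference below 1: CHRM2 gave 0.74, TMEM163 0.50, KDR 0.36 and TPD52L1 -0.70. MIR490, whose difference in the controls was below 2, gave -0.07. Among the 29 genes that turned sign were genes described above. RNASE2CP gave -3.14 on the pair, FABP4 -0.18, EGR1 -0.43, JAG1 -0.94, HES1 -0.66, PDK4 -1.47, CA2 -0.20, EXOC1L -0.33, RNASE2 -0.20, CDH10 -1.53 and PCDH17 -0.45, all of which were higher in the controls of MUG-Chor1. LUM gave 1.12 and SEMA3E 0.66, both lower in the controls. The effect of TNF-α and the spread between single arrays cannot be told apart in this pair.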

How the data were processed

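Values are log2 intensities of 53617 probe sets as deposited by the authors; RMA and Transcriptome Analysis Console are named in the submitters' processing notes, without versions or settings, and the log2 scale was read from the values (0.06 to 12.67). RMA fits all arrays of a run together and draws low probe sets towards a floor. Of these probe sets, 23871 had 1 gene symbol in the platform annotation, 1842 had several and 27904 were unnamed here. For each of 22395 genes the probe set with the brightest mean over the controls was kept. Genes above 2.57 on at least 1 of 6 arrays were fitted in limma 3.58.1 (R 4.3.3; lmFit and eBayes, 4 residual degrees of freedom) with Benjamini-Hochberg adjustment. Tables and figures were made in Python 3.11.15 with pandas 2.3.3 and matplotlib 3.10.9. On simulated data for 16671 genes, the same fit recovered 35% of changes of 1 log2 unit and 89% of changes of 2, with 4.62% of calls false. Far fewer genes were changed in the simulation than were called in the data. These rates therefore check the fit and do not give the sensitivity of the comparison.

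The comparison, gene lists and tests were chosen with earlier results of these data known. Named genes are the 15 largest coding and 3 largest noncoding differences each way, up to 4 called members each way per list, called members of runs of neighbours, and fixed markers; microRNA genes, the genes holding them, and ACAN, VIM, DLK1, DIO3 and MEG9 were added after their values were seen. Genes on the Y chromosome and the X inactivation genes are not reported. Alternatives were other filters, probe set rules, scalings, fits and sets of arrays.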

Additional observations from a re-analysis of the deposited data

How the results depend on the processing

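The number of genes called was 3201 and lay between 3126 and 3729 without a filter, with a filter on the mean, with the mean of all probe sets of a gene, with quantile normalization, with array medians set to 0, with an intensity trend, with robust fitting and with array weights. A fit of all 8 arrays with 4 group means gave 3205. Single TNF arrays add no residual degrees of freedom, so that fit could differ only through the genes that entered it and is no check. Setting array medians to 0 shifted the median difference by -0.06 and turned the split of 1752 higher and 1449 lower into 1548 and 1695. Testing against a difference of 1 log2 unit (limma's treat) left 361 genes, 185 higher and 176 lower. Leaving out each array in turn gave 2124 to 3080 calls, with 1186 to 1628 higher and 924 to 1452 lower; without MUG-Chor1 control 1 there were 2124 calls (924 lower), and without MUG-Chor1 control 2 there were 927 lower. Of 481 named genes that were called, 359 kept the call with each array left out and 122 lost it at least once; 348 lost it under treat, and 24 under another of the settings. Genes that were not called changed sign near 0: with each array left out TBXT ran from -0.22 to 0.083, CD24 from -0.056 to 0.14 and SOX9 from -0.34 to 0.017, and CD24 was -0.0037 with array medians set to 0. The causes were not tested. The number of arrays limits small differences, and probe sets near the floor understate change.

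With the control number as a block, 3237 genes were called, 2988 of them shared. The labels do not state whether the numbers pair the samples. Deviations of same-numbered controls correlated at 0.04, -0.06 and 0.16, and those of other pairs at -0.15 to 0.14. Not every control correlated best with its own number. Deviations from a mean of 3 arrays depend on each other, so these values cannot exclude pairing.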

Other observations

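Of 1162 long noncoding RNA genes tested in limma, 107 were higher and 54 lower in MUG-Chor1 (13.9% called, against 19.2% over all genes). Of the probe sets with no gene symbol or several, 14782 were above the filter and 663 of them (4.49%) passed when tested among themselves.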
